A study of Drosophila melanogaster with 14 samples.

Results

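RNA held by a FLAG-tagged poly(A)-binding protein of the outer photoreceptors was compared with total RNA of whole heads of the same genotype, across all genes of a Drosophila melanogaster Affymetrix array. The comparison took 8 of the 14 arrays of the series: 4 labelled photoreceptor cells R1-R6 (IP) and 4 of whole heads (Rh1 heads). A probe set of their own stood for 10843 genes, and the 7816 whose signal passed a filter on low values were tested. Flies of both groups carried Rh1-GAL4, a driver taken from the gene of the R1-R6 opsin, together with a UAS transgene for poly(A)-binding protein with a FLAG tag. The labels spell that transgene UAS-dPABP-FLAG in places and UAS-hPABP-FLAG in others, and this was not settled here. For Rh1 heads about 100 frozen heads a sample were extracted directly. For IP each sample took about 200 heads, crosslinked for 30 min in 1% formaldehyde and then sonicated, and heat released the RNA that anti-FLAG beads had retained. The fixation, sonication and bead steps belong to IP only, so what they did to the RNA cannot be told apart from what the tagged protein bound. No precipitate from flies without the tagged protein was used here. Fly age and sex were not stated in the labels. The remaining 6 arrays, of whole heads of the wild-type strain Canton-S (CS heads), served as a second reference.

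Each facet of the fly eye holds 8 photoreceptors, of which R1-R6 are the outer ones and share the opsin Rh1. Each stacks its light-sensing membrane into a rhabdomere. There, rhodopsin acts through a Gq protein and phospholipase C to open the TRP and TRPL channels, and the cell signals to the brain with histamine. The eye also holds granules of red pteridine and brown ommochrome pigments, many of them in the pigment cells that surround the photoreceptors. Because messenger RNA tails are bound by poly(A)-binding protein, a tagged copy made only in the outer photoreceptors lets their transcripts be recovered from a whole head, which also holds brain, glia, muscle, fat body, antennae and cuticle. In such a mixed sample fewer cells of a type and less RNA per cell cannot be told apart.

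The IP arrays agreed less well with each other than the head arrays did. Over the tested probe sets the correlation of log2 signals between arrays ran from 0.847 to 0.976 within IP and from 0.985 to 0.994 within Rh1 heads. The control transcript eIF-4a is probed at both ends, and its 5′ signal over its 3′ signal was 0.604 to 0.678 in Rh1 heads against 0.531, 0.0284, 0.209 and 0.0432 in IP replicates 1 to 4. For the other 2 such controls the ratio was likewise lower in all 4 IP arrays than in any Rh1 head array: GAPDH had 0.202, 0.0248, 0.169 and 0.00930 in IP against 0.405 to 0.468, and actin 0.135, 0.0200, 0.0679 and 0.0167 against 0.421 to 0.513. All 3 ratios were lowest in IP replicates 2 and 4, but replicates 1 and 3 were not free of the shortfall. The counts over all genes are given with and without replicates 2 and 4, and those of some families only. Without these 2 arrays the medians of 25 of the 78 families moved by more than the SD of that median between IP arrays. Of the 59 medians at least 0.1 from 0, 0 changed sign. Of 12 photoreceptor genes listed as R1-R6 markers 11 were higher in IP, and their summed signal was 39539 to 66367 in IP against 20424 to 21189 in Rh1 heads and 56051 to 61477 in CS heads. The sum thus stood above that of Rh1 heads, although not clearly above that of CS heads. The Rh1 opsin gene was not among these genes, and whether the RNA came from R1-R6 rather than R7 or R8 was not tested. Markers of several other head tissues had lower summed signals in IP, with all 6 tested muscle markers, 5 of 6 fat body markers, 4 of 6 glial markers and 5 of 5 markers of other neurons lower. Of the glial markers 1 was higher. The glial regulator repo was not among the lower genes, with 426, 484, 533 and 483 in IP and 286 to 562 in Rh1 heads, overlapping between groups (log2 fold 0.06, SE 0.19, limma adjusted p = 0.806). Pigment and cone cell markers (1 higher and 0 lower of 5) overlapped between the groups, with sums of 11667 to 17482 in IP and 12878 to 14445 in Rh1 heads. So did those of cuticle and epidermis (1 higher and 0 lower of 3), with 1145 to 1616 and 1191 to 1319, and pan-neuronal ones (1 of 3 lower), with 892 to 2486 and 2409 to 2797. None of the lower sums reached 0: the fat body sum was 10026 to 16964 in IP and 67594 to 74183 in Rh1 heads, and the glial sum 6213 to 11249 and 15130.3 to 16759.

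Differences between IP and Rh1 heads reached across the transcriptome. At a limma adjusted p under 0.05, 3743 of the 7816 genes (47.9%) differed, 1785 higher in IP (22.8%) and 1958 lower (25.1%). By at least 2-fold, 585 genes (7.48%) were higher and 704 (9.01%) lower. All 4 IP arrays lay above all 4 Rh1 head arrays for 1713 genes (21.9%) and below them for 1978 (25.3%). The median log2 fold, IP minus Rh1 heads on the scale of log2(signal + 32), was 0.02 over all genes. Counts of family members below are read against these shares. With IP replicates 2 and 4 left out, the shares were 25.2% higher and 30.8% lower, and against CS heads they were 27.9% and 34.2%.

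**Figure D1:**
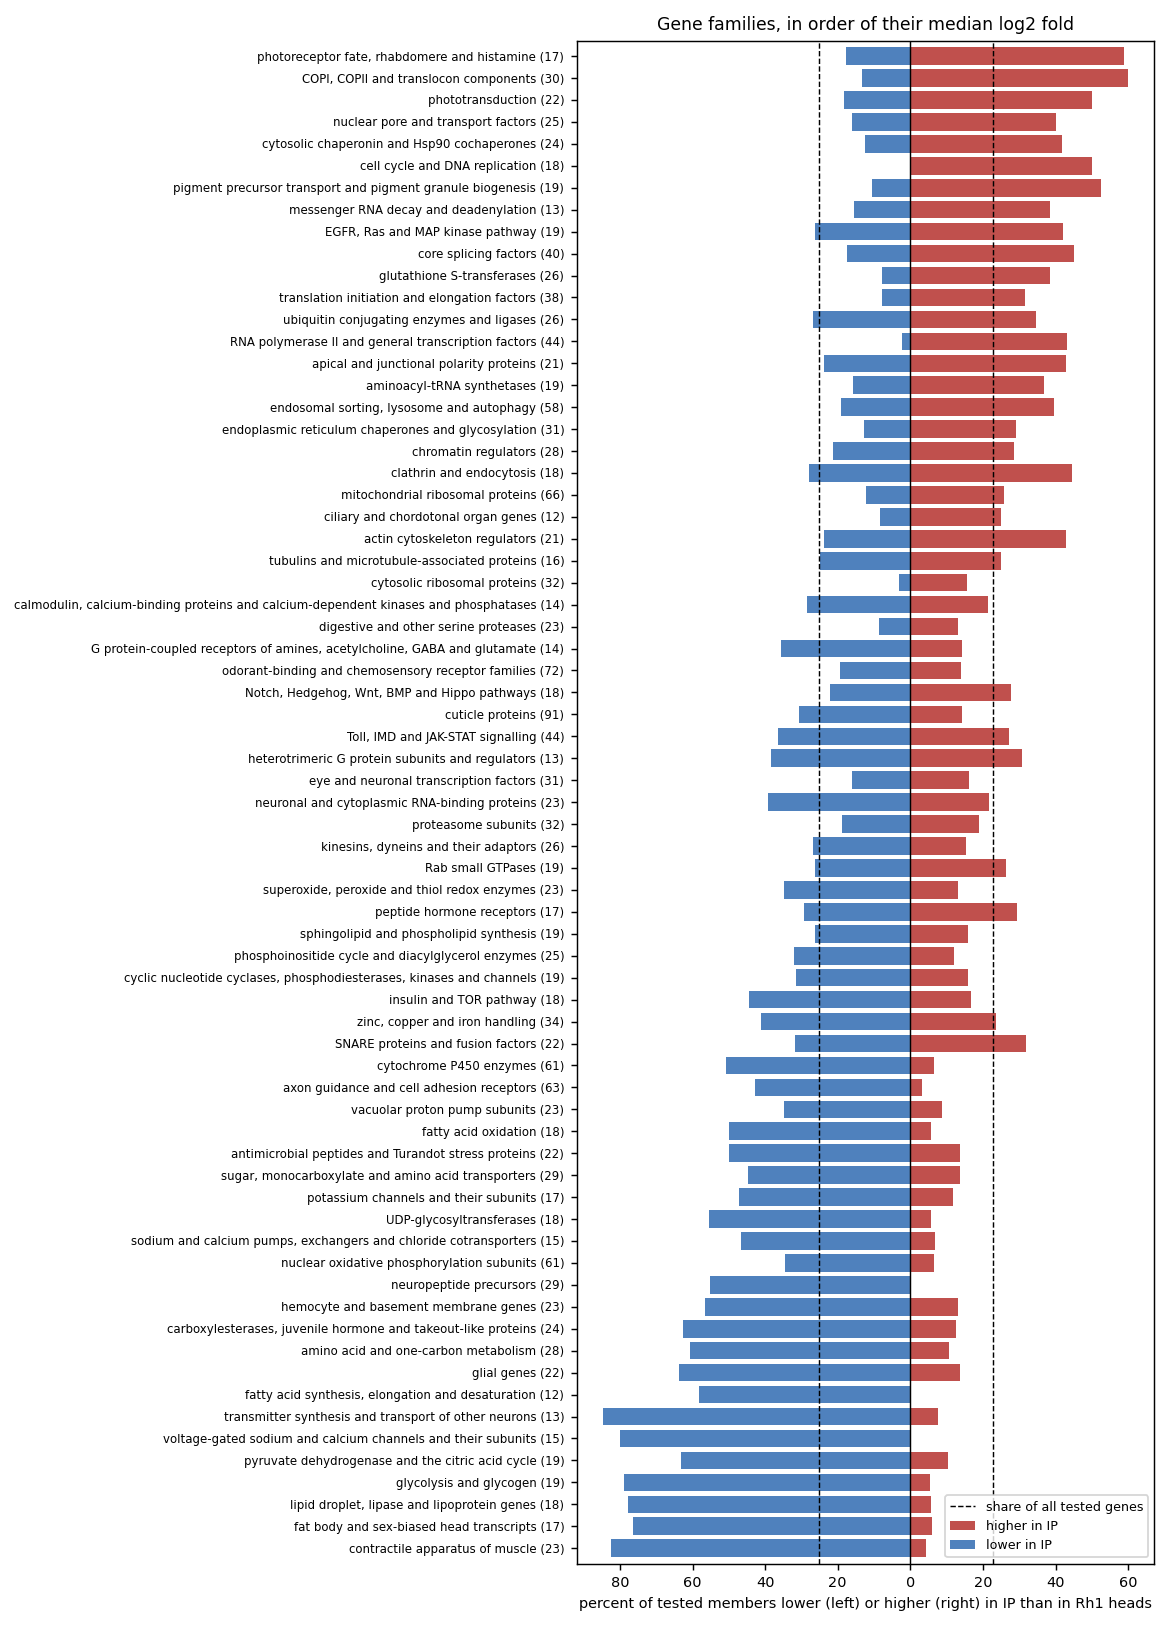
Percent of the tested members of each gene family that were higher (right, red) or lower (left, blue) in IP than in Rh1 heads at an adjusted p under 0.05, for the families with at least 12 tested members (number in brackets), in order of their median log2 fold. Dashed lines mark the shares of all tested genes, 22.8% higher and 25.1% lower. Photoreceptor, secretory and gene expression families sit at the top, and muscle, fat body, metabolic and ion channel families at the bottom.

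The genes with the steepest rises were a mixed set, of which few are textbook photoreceptor genes. ZnT35C, which encodes a zinc transporter, had signals of 3049, 2608, 2502 and 2210.2 in the IP replicates against 182 to 191 in Rh1 heads (log2 fold 3.58, SE 0.11, adjusted p = 7.42e-08). The groups lay far apart, and the CS head mean of 112 (SD 5.17, n = 6) was lower still. SmydA-8, of the SET and MYND domain family, had 3994, 3824, 3302 and 3024 in IP against 364 to 439 in Rh1 heads (log2 fold 3.06, SE 0.12, adjusted p = 2.42e-07). It stood at 1409 (SD 62.9, n = 6) in CS heads, between the other groups. Jhbp2, a member of the juvenile hormone-binding protein family, had 10529, 11115, 10302 and 7796 in IP against 1171 to 1347 in Rh1 heads (log2 fold 2.94, SE 0.14, adjusted p = 5.53e-07). Rbp9, an RNA-binding protein of the ELAV family, had 3579, 2424, 2913 and 3471 against 323 to 416 (log2 fold 2.96, SE 0.14, adjusted p = 5.46e-07). For each of these 4 genes every IP array stood above every head array of both genotypes.

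Other steep rises touched mitochondrial import, protein folding and the nuclear envelope. Tim9a, a small chaperone of the mitochondrial intermembrane space, had 957, 1369, 1149 and 1889 in IP against 121 to 183 in Rh1 heads (log2 fold 2.89, SE 0.20). Hsp26, a small heat shock protein, had 4791, 4432, 5554 and 3546 against 603 to 615 (log2 fold 2.83, SE 0.14), and MAN1, of the inner nuclear membrane, had 2456, 2270.1, 1963 and 1311 against 253 to 278 (log2 fold 2.72, SE 0.18). In none of these did the groups overlap. SCCRO4, related to factors that attach Nedd8 to cullins, rose with a log2 fold of 2.75, and Sidpn, a helix-loop-helix gene related to deadpan, with 2.80. Of the 20 largest rises, the rest were CG15369 (3.31), stops (3.12), Atx-1 (3.12), Pph13 (3.03), CG18507 (2.95), the histamine-making Hdc (2.84), CG17777 (2.80), asRNA:CR43468 (2.77), trpl (2.74), CG13751 (2.73) and CG2681 (2.73). Atx-1, the fly ataxin 1 gene, differed most between IP arrays, with 5246, 3469, 4079.9 and 391 in IP against 223 to 275 in Rh1 heads (SE 0.68). IP replicate 4 stood alone at a low level there, and with replicates 2 and 4 left out the log2 fold was 4.08.

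**Figure D2:**
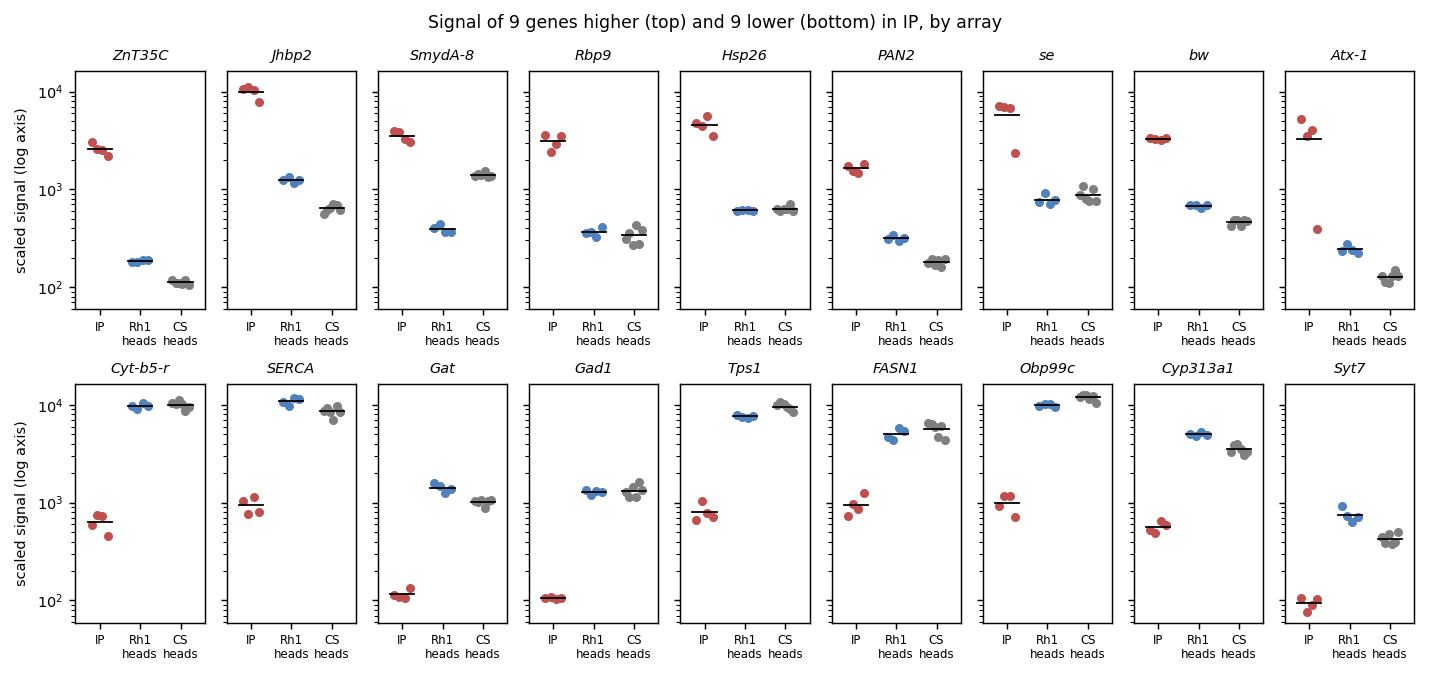
Scaled signal (log axis) of 9 genes higher in IP (top row) and 9 lower (bottom row) on each array of IP (red, 4), Rh1 heads (blue, 4) and CS heads (grey, 6). Lines are group means. Apart from replicate 4 for Atx-1, which is nearer to the head arrays, the IP arrays stand well away from both head groups.

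Among the photoreceptor's own genes, several regulators and the histamine genes Hdc and CarT were higher in IP against either head reference. Much of the light-response cascade was higher against Rh1 heads only. Of 17 tested genes of photoreceptor fate, rhabdomere and histamine, 10 were higher and 3 lower (median log2 fold 1.40), and against CS heads the counts were also 10 and 3 (median 0.52). Without IP replicates 2 and 4 they were 11 and 3 (median 2.14). Of 22 phototransduction genes 11 were higher and 4 lower (median 0.49), but against CS heads 4 were higher and 9 lower (median -0.37). Of 31 tested eye and neuronal transcription factors 5 were higher, 5 lower and 21 did not pass (median -0.02). With IP replicates 2 and 4 left out 5 were higher and 11 lower. The nuclear regulators Pph13 (3.03 against Rh1 heads, 2.53 against CS heads), eya (2.26 and 2.37), gl (2.25 and 2.01) and so (1.40 and 1.30) had close values with both. For prom, which encodes the rhabdomere prominin, the values were 2.46 and 3.07, and for CarT, a carrier used in histamine recycling, 2.55 and 2.53.

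Genes acting nearer the channels behaved otherwise. Cpn, a calcium-binding protein of photoreceptors, had 3737, 3973, 3698 and 3821 in IP. Its means were 751 (SD 87.9, n = 4) for Rh1 heads and 2698 (SD 537, n = 6) for CS heads, giving log2 folds of 2.30 and 0.51. rtp, the rhabdomere protein retinophilin, had 9849.6, 8211, 8842 and 8789.9 in IP, 1439 to 1682 in Rh1 heads and a CS head mean of 6654 (SD 481, n = 6), giving log2 folds of 2.47 and 0.42. The channel gene trpl had 5910.5, 5512, 5375 and 3949.8 in IP and 690.1 to 772 in Rh1 heads, below the 7342 (SD 312, n = 6) of CS heads, and its log2 folds were 2.74 and -0.51. Here the low value was that of Rh1 heads. The scaffold gene inaD had 2.41 and -0.19, trp 2.39 and -0.11, Arr2, an arrestin, 0.67 and -0.36, and inaC, the eye protein kinase C, 1.53 and -0.77. Against CS heads trpl (adjusted p = 0.00441) and Arr2 (adjusted p = 0.0323) were lower at the limma threshold, and trp (adjusted p = 0.749), inaD (adjusted p = 0.399) and inaC (adjusted p = 0.113) did not pass.

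**Figure D3:**
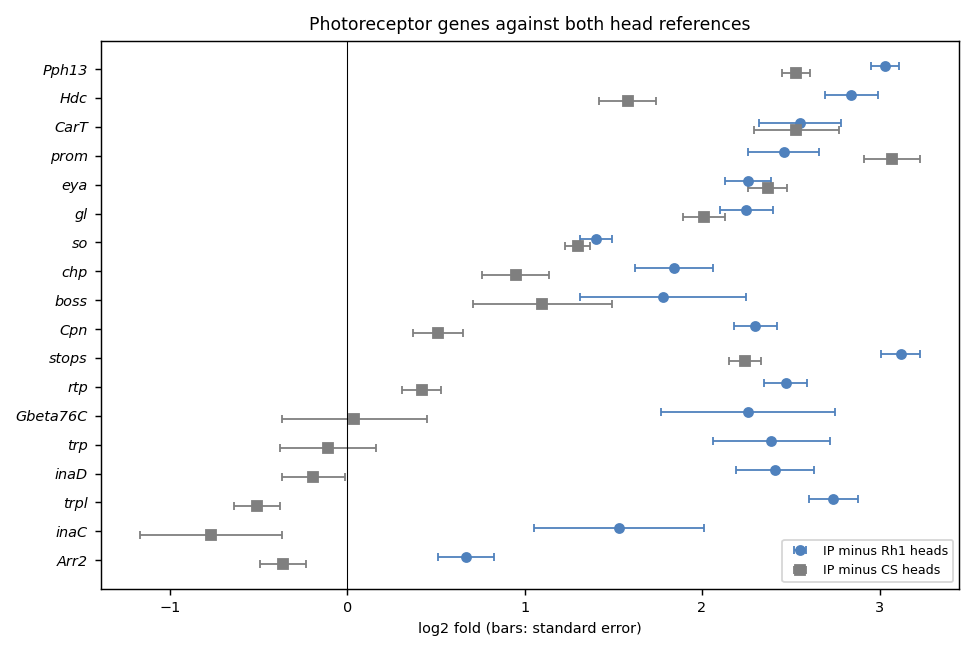
Log2 fold of 18 photoreceptor genes in IP against Rh1 heads (blue circles) and against CS heads (grey squares), with standard errors from limma. The 2 references give close values for eya, gl, so and CarT, whereas trp, inaD, trpl, inaC and Arr2 lie above 0 against Rh1 heads only. Both comparisons use the same 4 IP arrays.

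IP replicate 4 was the lowest IP array for several of these genes. For Gbeta76C, the eye G protein beta subunit, the IP signals were 7954, 5138, 6486 and 1246 against 785 to 1015 in Rh1 heads, and against CS heads it did not pass (log2 fold 0.04, limma adjusted p = 0.945). For boss, the ligand of Sevenless that R8 presents during eye development, they were 3835, 2175, 2955 and 607 against 493 to 596, and for inaC 4102, 2016, 3134 and 635 against 654 to 722, so that inaC overlapped between groups through replicate 4. With replicates 2 and 4 left out the log2 folds were 3.00 for Gbeta76C in place of 2.26, 2.54 for boss in place of 1.78 and 2.34 for inaC in place of 1.53. Of all 585 genes at least 2-fold higher, replicate 4 was the lowest IP array for 24.6% and the highest for 54.7%.

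Several genes of the red pteridine eye pigments were higher in IP. Of 19 tested genes of pigment precursor transport and pigment granule biogenesis, 10 were higher and 2 lower (median log2 fold 0.35), and 12 and 2 against CS heads. Pu, the GTP cyclohydrolase that starts the pteridine pathway, had 7288, 6274, 6939 and 7982 in IP against 2128 to 3248 in Rh1 heads (log2 fold 1.38, SE 0.16, adjusted p = 9.31e-05). pr, the next enzyme, had 4567, 3549.8, 4428 and 4825 against 946 to 1303 (1.94, SE 0.15, adjusted p = 6.15e-06). se, an enzyme of red drosopterin synthesis, had 7089, 6962, 6837 and 2356 against 714 to 915 (2.71, SE 0.33, adjusted p = 0.000127). No array overlapped between the groups for these 3 genes, and replicate 4 was the lowest for se. bw, an ABC transporter subunit for pteridine precursors, had 3378, 3301, 3207 and 3329 against 638 to 693, a log2 fold of 2.23 (SE 0.09), although a second probe set of bw gave -0.26. pn, another gene of red pigment, rose with 1.11. Of the granule genes, the GTPase gene Rab32 rose with 0.70, the adaptor subunit gene or (orange) with 0.81, the tethering gene lt (light) with 0.68 and the ommochrome precursor transporter gene st (scarlet) with 0.75. ry, xanthine dehydrogenase, which also acts on pteridines, fell by 1.00, and g (garnet), another adaptor subunit, fell by 0.35. Of 8 genes of carotenoid uptake and the visual cycle 3 rose and 1 fell, and the scavenger receptor gene santa-maria (1.12) and the retinol dehydrogenase gene rdhB (0.98) were the highest. Against CS heads the log2 folds of Pu, pr, se and bw were 1.97, 1.83, 2.56 and 2.76.

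The early secretory pathway, which carries rhodopsin and other membrane proteins to the rhabdomere, was more often higher than lower in IP. Of 30 COPI, COPII and translocon genes 18 rose and 4 fell (median log2 fold 0.54, 18 and 4 also against CS heads). gammaCOP, a coatomer subunit of Golgi vesicles, had 1562, 1693, 1576 and 1299.9 in IP against 565 to 681 in Rh1 heads (1.24, SE 0.11, adjusted p = 1.96e-05). Of 5 coatomer subunits 4 rose, from 0.49 for alphaCOP to 1.43 for deltaCOP. The cargo adaptors eca (1.23) and CHOp24 (1.14), the vesicle SNARE Sec22 (1.22) and the COPII subunit Sec13 (1.13) rose too. Of the signal recognition particle and its receptor, 6 of 7 genes rose, with Srp72 at 1.02. The ER membrane complex, which in flies is needed to fold rhodopsin, had 5 of 8 tested subunits higher and 1 lower, with EMC7 at 1.54, EMC8-9 at 1.44, EMC5 at 1.19, EMC6 at 1.09 and EMC1 at -0.96. Cnx99A, the calnexin that folds Rh1, rose with 1.23. Over all 31 genes of ER folding and glycosylation 9 rose and 4 fell, and ERp44 (1.51), whose probe set may share sequence with other genes, was among those that rose.

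The tethers of Golgi and plasma membrane vesicles moved likewise. Of 6 tested genes of the TRAPP tether 5 were higher, namely Trs20 (1.67), Bet5 (1.63), Trs31 (1.38), Trs23 (1.14) and Trs33 (0.29). Trs31 had 448, 565, 599.7 and 546 in IP against 173 to 207 in Rh1 heads (SE 0.11, adjusted p = 6.95e-06). The remaining gene, Bet3, had a log2 fold of -0.02. All 4 tested exocyst genes rose, namely Exo70 (1.25), Sec10 (1.02), Sec8 (0.91) and Sec5 (0.66), as did the 3 tested retromer genes, Vps29 (0.99), Vps35 (0.77) and Vps26 (0.71). Retromer returns Rh1 from endosomes in fly photoreceptors. All complexes named here and below were taken whole by gene name, after their values were seen.

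SNARE genes went both ways. Of 22 SNARE and fusion genes 7 rose and 7 fell. The general fusion genes Vti1a (1.67), Ykt6 (1.51), Syb (1.33), alphaSnap (1.09) and Snap29 (0.75) were higher, and Syb had 1652, 1522, 1786 and 1469 in IP against 593 to 656 in Rh1 heads. Lower were the synaptic genes Syt7 (-2.64), unc-13 (-1.67), Sytalpha (-1.15), Liprin-alpha (-1.06), Rim (-0.56) and Rbp (-0.55), along with gammaSnap1 (-1.24). Syt7, a calcium sensor of exocytosis, had a mean of 93.4 (SD 13.1, n = 4) in IP and 635 to 929.9 in Rh1 heads, with no overlap. Rab GTPases went both ways, with 5 of 19 higher, led by Rab19 (1.54) and Rab14 (1.22), and 5 lower, led by the synaptic Rab3 (-1.02). Of 18 clathrin and endocytosis genes 8 rose and 5 fell, with AP-1sigma (1.29) and AP-1gamma (-1.18), subunits of the same adaptor, on opposite sides and Hsc70-4, the uncoating chaperone, at -1.18 without passing. In endosomal sorting, lysosome and autophagy 23 of 58 genes rose and 11 fell. The ESCRT genes Vps24 (1.82), Chmp1 (1.45), Vps28 (0.92), shrb (0.83) and Vps20 (0.70), picked with their values in view, were higher. Against CS heads Vps28 changed sign and Vps20 lost its call. No count was made over the ESCRT genes as a whole. Of the sterol carriers, Npc2a rose (1.86) while Npc2g (-2.41) and Npc2h (-1.29) fell. Lamp1, a lysosomal membrane protein, fell by 2.47, with 1203, 382, 913 and 363 in IP against 3411 to 3737. Its IP signals were lowest in replicates 2 and 4, which also had the lowest 5′ control signal, whose part in the result was not tested.

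**Figure D4:**
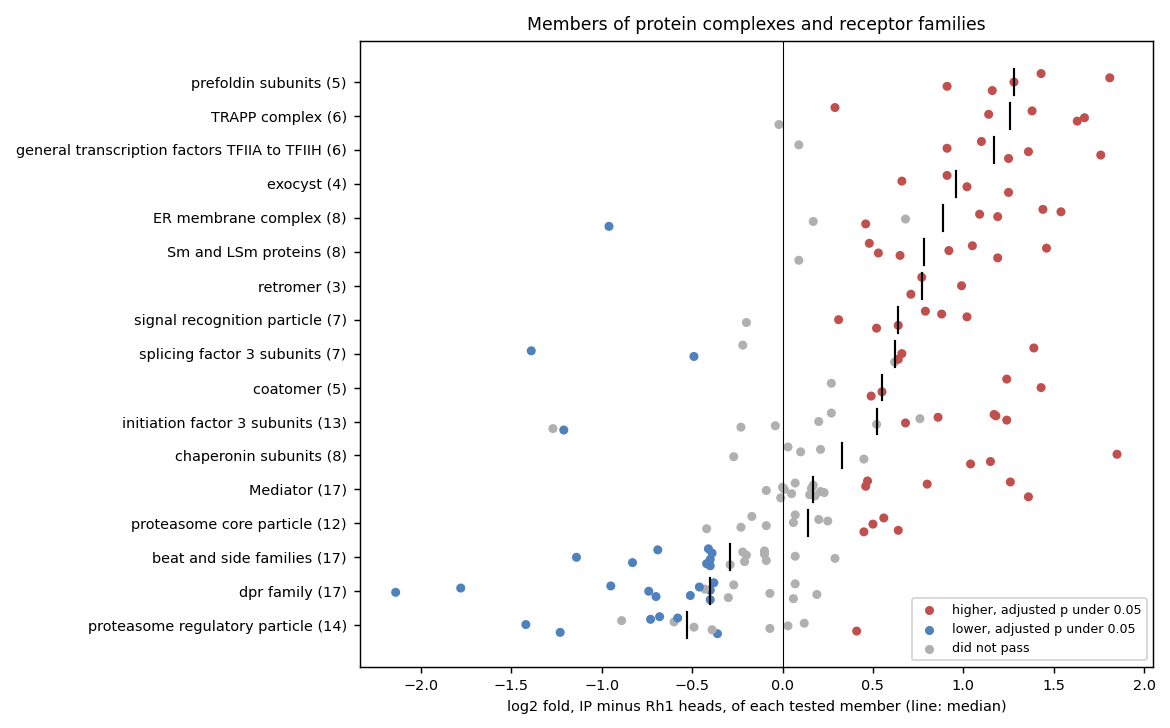
Log2 fold, IP minus Rh1 heads, of every tested member of 17 protein complexes or receptor families, each taken whole by gene name (number tested in brackets). Red and blue points passed an adjusted p under 0.05, grey points did not, and the black line is the median. Prefoldin, TRAPP and general transcription factors lie almost wholly to the right of 0, and the dpr, beat and side cell surface families mostly to the left.

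Genes of transcription, splicing and translation initiation were more often higher than lower. Of 44 tested genes of RNA polymerase II and its general factors 19 rose and 1 fell (median log2 fold 0.19). TfIIA-S, the small subunit of TFIIA, had 2398, 3587, 2884 and 3528 in IP against 805 to 1010.4 in Rh1 heads (1.76, SE 0.15, adjusted p = 1.52e-05). Spt3 (1.84), of the SAGA coactivator, TfIIB (1.36), TfIIA-L (1.25), TfIIFbeta (1.10), the polymerase subunits Polr2E (1.35) and Polr2J (1.29) and the Mediator subunits MED10 (1.36) and MED6 (1.26) rose as well, and 12 of 17 tested Mediator genes did not pass. Against CS heads 24 of the 44 were higher and 4 lower. Of 40 core splicing factors 18 rose and 7 fell (median 0.28). Of 8 Sm and LSm genes, whose proteins form rings on spliceosomal RNA, 7 were higher, and SmD3 had 907, 935, 880.0 and 835 against 274 to 321 (1.46, SE 0.09, adjusted p = 1.75e-06). The regulators glo (-1.84) and Hrb27C (-1.24) fell. Nuclear transport genes rose in 10 of 25 cases and fell in 4, with Ntf-2, the carrier that brings Ran into the nucleus, at 4962, 6379.8, 5259 and 4734 against 1314 to 1507 (1.89, SE 0.13). The nuclear pore gene Nup62 (1.18) rose and the exportin gene Ranbp16 (-1.20) fell. Of 28 chromatin regulators 8 rose and 6 fell, with the histone deacetylase gene HDAC1 (1.36) higher and trx (-1.60), a histone methyltransferase gene, and E(bx) (-1.17), a nucleosome remodelling gene, lower. RNA-binding proteins of neurons and cytoplasm fell more often, in 9 of 23 cases against 5 that rose, and larp (-2.12) and ps (-1.60) fell furthest. Of 11 DNA repair genes 1, Xpc (0.81), rose and 2, the photolyase-related clock gene cry (-1.05) and the checkpoint kinase gene grp (-0.84), fell. This count depends on the scaling and the reference. Under median scaling 5 rose and 2 fell, under quantile scaling 4 and 2, and against CS heads 7 and 3.

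In translation, 12 of 38 initiation and elongation factors were higher and 3 lower. eRF1, the release factor, rose with a log2 fold of 1.67 and the cap-binding eIF4E1 with 1.12. eEF1alpha2 (-1.62) and eIF3b (-1.27) had large values but did not pass. Of 32 cytosolic ribosomal protein genes 5 were higher, among them RpS28a (0.92), and 1, RpLP0 (-1.36), lower, while RpL3 (-1.17) did not pass. Without IP replicates 2 and 4 this count was 18 higher and 4 lower, and under quantile scaling 14 and 1, so it depends on the arrays and the scaling. Of 66 mitochondrial ribosomal protein genes 17 (25.8%) rose, mRpL33 with 2.18 and mRpS9 with 1.71, near the share of all genes, and 8 fell, including mRpS30 (-1.04). Against CS heads 16 rose and 16 fell. Of 19 aminoacyl-tRNA synthetases, which load transfer RNA, 7 rose, led by TyrRS (1.37), TrpRS (1.02) and PheRS-m (0.73), and 3 fell. The mRNA decay genes PAN2 (2.26), me31B (1.25) and Pop2 (1.11) were higher. PAN2, a subunit of a nuclease that trims poly(A) tails and works with poly(A)-binding protein, had 1729.6, 1538, 1465 and 1823 in IP against 297 to 343 in Rh1 heads (SE 0.10, adjusted p = 4.31e-07), and its log2 fold against CS heads was 2.98. Its partner PAN3 fell by 0.38. pAbp, which encodes the fly's own poly(A)-binding protein, had 11114, 6691, 9649 and 9717 in IP against 6898 to 8229 in Rh1 heads, with overlap, and did not pass (log2 fold 0.28, SE 0.19, limma adjusted p = 0.249). Its second probe set had a log2 fold of 1.12.

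Prefoldin hands new actin and tubulin to the chaperonin. All 5 tested prefoldin genes were higher, from 0.91 for Pfdn2 to 1.81 for Pfdn5, with Pfdn6 at 1.43. Of the 8 chaperonin subunits 5 did not pass (median 0.33 over the 8) and 3 did, CCT5 (1.85), CCT2 (1.15) and CCT1 (1.04), all higher. CCT5 had 2085, 2718, 2490.3 and 2051 in IP against 572 to 704 in Rh1 heads. Hsp27 (1.85) and the cochaperone stv (1.66) rose beside Hsp26, with a second probe set of stv at -0.60. Of 21 actin regulators 9 rose and 5 fell. sn, the fly fascin that bundles actin, had 8183, 6669.6, 7014 and 6311 in IP against 1719 to 1953 (1.90, SE 0.13, adjusted p = 3.16e-06). Both subunits of the capping protein rose, cpa with 2.06 and cpb with 1.27, as did Moe (1.21), the moesin of the rhabdomere base, tsr (1.10), the fly cofilin, and chic (1.07), the profilin. Lower were tmod (-1.75), Gel (-1.55), a gelsolin, and Ank2 (-1.33).

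Genes of apical and junctional polarity, which sets the rhabdomere apart from the rest of the cell, rose in 9 of 21 cases and fell in 5. dlg1, a scaffold of the lateral membrane, had 5060.4, 2038, 3084 and 1135 in IP against 481 to 528 in Rh1 heads (2.21, SE 0.37, adjusted p = 0.000986), with a second probe set at -0.86. l(2)gl (1.36), alpha-Cat (1.05), yrt (0.88), par-6 (0.74) and crb (0.63) rose, while aPKC (-1.26) and scrib (-0.78) fell. Patj (1.69) rose, on a probe set that may share sequence with other genes. Of 16 tubulin and microtubule-associated genes 4 rose and 4 fell, and of 26 kinesin and dynein genes 4 rose and 7 fell. betaTub56D (1.59) and the dynein light chain robl (1.44) rose, whereas the neuronal stai (-1.29), tau (-1.06) and unc-104 (-2.21), a kinesin that carries synaptic vesicle precursors, fell. So did Mapmodulin (-1.55), the spectraplakin gene shot (-1.53) and milt (-1.41), whose product links kinesin to mitochondria. Of 12 ciliary and chordotonal organ genes 3 rose in small steps, BBS1 (0.55), IFT43 (0.47) and iav (0.45), and 1 fell.

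Signalling families held rises and falls. Of 19 cyclic nucleotide genes 3 rose and 6 fell, of 14 calcium-binding and calcium-dependent enzyme genes 3 rose and 4 fell, of 25 phosphoinositide genes 3 rose and 8 fell, and of 13 G protein genes 4 rose and 5 fell. The EGFR, Ras and MAP kinase pathway had 8 of 19 higher and 5 lower. Slob, which binds the Slowpoke potassium channel, had 4657, 4273, 3999.9 and 2876 in IP, 658 to 754 in Rh1 heads and a mean of 1359 (SD 66.5, n = 6) in CS heads (log2 fold 2.40 against Rh1 heads), with a second probe set at -0.67. Ac13E, an adenylyl cyclase, had 2181, 989, 1394 and 1542 against 335 to 415 (1.85), and Pka-C3, a protein kinase A subunit, rose with 1.30. The guanylyl cyclase subunit gene Gycalpha99B (-1.55) fell, and the adenylyl cyclase gene rut fell by 2.00, on a probe set that may share sequence with other genes. The calcium release channel gene RyR (-2.35), the calcium sensor genes Frq1 (-2.23) and Cbp53E (-1.79), the phospholipase C gene Plc21C (-1.90) and the lipid phosphatase gene wun2 (-1.40) fell too. Galphai (1.37) and cta (1.06), alpha subunits of other G proteins, were higher, while Galphao (-2.19) was lower. 5-HT2A, a serotonin receptor, rose with 1.38. dos, an adaptor of receptor tyrosine kinases first studied in the Sevenless pathway, rose with 1.65 and puc, a phosphatase of the JNK pathway, with 1.42, while Egfr (-1.21) and its ligand spi (-1.26) fell. Cdk5, a kinase of postmitotic neurons, had 953, 786, 1138 and 1386 against 217 to 276 (1.95, SE 0.16). In the Notch, Hedgehog, Wnt, BMP and Hippo pathways 5 of 18 rose, among them the presenilin gene Psn (1.07), and 4 fell, among them mam (-2.10), on a probe set of possibly shared sequence, and Actbeta (-1.31). The insulin and TOR group had 3 of 18 higher and 8 lower, with sNPF (-1.68), the kinase gene Akt (-1.30) and the insulin-like Ilp2 (-1.25) the lowest. Of 18 tested cell cycle and replication genes 9 rose and 0 fell at the limma threshold, among them twe (1.76), E2f2 (1.06) and PCNA (0.73). Without IP replicates 2 and 4 the counts were 9 and 1. Usp8, a deubiquitinase of endosomes, had 1036, 1109.7, 1173 and 1399 against 185 to 204 (2.41, SE 0.11). Of 26 ubiquitin conjugating enzymes and ligases 9 rose, ari-2 with 1.67, and 7 fell, the polyubiquitin gene Ubi-p63E (-1.42) among them. Of 10 cell death genes 3 rose, including Debcl (1.51) and the caspase gene Dronc (1.23), and 3 fell, including Bruce (-1.22), an inhibitor of cell death.

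Ion channel genes were mostly lower in IP. Of 15 tested voltage-gated sodium and calcium channel genes and their subunits 12 fell and 0 rose at the limma threshold (median log2 fold -1.01), and 10 fell and 1 rose against CS heads. Among those that fell were Ih (-1.95), unc79 (-1.69), the sodium channel subunit Teh2 (-1.62), the calcium channel Ca-alpha1D (-1.55) and cac (-1.10), the calcium channel of presynaptic terminals. Ih, a channel opened by hyperpolarisation and cyclic nucleotides, was the lowest of the family. Of 17 potassium channel genes 8 fell and 2 rose. Sh, the Shaker channel, had 132, 45.8, 50.8 and 44.2 against 383 to 519 (-2.34, SE 0.23), with 3 other probe sets at -0.70, -0.17 and -0.14. slo fell by 1.46, while sei rose with 0.79.

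Channel-forming receptors for the transmitters of other neurons were lower too. Of 7 nicotinic receptor genes 6 fell, led by nAChRalpha7 (-1.45), nAChRalpha3 (-0.68) and nAChRalpha2 (-0.62), of 5 ionotropic glutamate receptor genes 3 fell, GluRIA (-0.57), GluRIIA (-0.30) and GluRIIB (-0.29), and of 10 chloride channel genes 6 fell, led by GluClalpha and Lcch3 (both -2.10), while ClC-a (-0.86), on a probe set of possibly shared sequence, did not pass. GluClalpha, a glutamate-gated chloride channel, had 27.8, 32.8, 19.8 and 46.0 in IP against 173 to 283 in Rh1 heads. ort, the histamine receptor of the cells that photoreceptors signal to, fell by 0.66. Of 14 receptors that act through G proteins for amines, acetylcholine, GABA and glutamate 2 rose, 5 fell, led by the dopamine and ecdysteroid receptor gene DopEcR (-1.68), and 7 did not pass (median 0.02). Of 17 peptide hormone receptors 5 rose, including Dh44-R2 (0.98) and rk (0.57), and 5 fell, including PK1-R (-0.68). In the pump and exchanger family 7 of 15 fell and 1 rose. SERCA, the calcium pump of the endoplasmic and sarcoplasmic reticulum, had 1041, 774, 1131 and 802 against 9690.4 to 11660.4 (-3.50, SE 0.16, adjusted p = 3.67e-07). PMCA, the plasma membrane calcium pump, fell by 2.53. Nckx30C, a sodium and calcium exchanger first found in fly photoreceptors, fell by 2.16. Of the store-operated entry genes, Stim (0.69) and Orai (0.79) rose.

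Cell surface proteins that sort neurites during wiring were lower in small steps. Of 63 axon guidance and adhesion genes 27 fell and 2 rose (median log2 fold -0.27), and with IP replicates 2 and 4 left out 41 fell and 3 rose. In the dpr family of neuronal surface labels 10 of 17 fell and 0 rose at the limma threshold, led by dpr18 (-2.14) and by dpr3 (-1.78), the latter on a probe set of possibly shared sequence. dpr18 had 27.5, 32.6, 28.0 and 47.8 in IP against 239.7 to 269. Of the beat and side families 8 of 17 fell and 0 rose at that threshold, led by beat-Vb (-1.14). CadN (-0.85), the neural cadherin that photoreceptor axons also use, and Fas1 (-0.99) fell. The genes of this family span a median of 38.7 kb, against 2.64 kb for all tested genes. Transmitter enzymes and carriers of other neurons fell in 11 of 13 cases and rose in 1. Gad1, which makes GABA, had a mean of 107 (SD 1.93, n = 4) in IP against 1201 to 1339 in Rh1 heads (-3.24, SE 0.08). Gat, the glial GABA carrier, fell by 3.30. pros, a regulator of R7 and of many brain neurons, fell by 1.92. The vesicle carrier of amines, Vmat (-1.72), fell. Of 29 neuropeptide precursor genes 16 fell and 0 rose at the limma threshold, and Ms (-2.65), CCHa2 (-2.44) and Dh31 (-2.31) were the lowest.

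Genes of glycolysis and of the citric acid cycle were mostly lower in IP. Of 19 glycolysis and glycogen genes 15 fell and 1 rose (median log2 fold -1.17), and of 19 citric acid cycle genes 12 fell and 2 rose (median -1.11). Tps1, which makes the blood sugar trehalose, had 664, 1036, 784 and 718 in IP against 7377 to 7855 in Rh1 heads (-3.22, SE 0.15, adjusted p = 4.32e-07), and Pepck1, of gluconeogenesis, had 575, 420.1, 473 and 518 against 4377 to 5018 (-3.15, SE 0.12). These are enzymes of the fat body in flies. Enzymes that every cell needs were lower as well, such as Eno (-1.85), Ald1 (-2.12), the aconitase mAcon1 (-2.17) and Cyt-c1 (-2.33). Cyt-c1, of respiratory complex III, had 2483, 701, 1619 and 296 in IP against 4835 to 5119, and its IP signals spread over a wide range, lowest in replicates 2 and 4. With those 2 left out its log2 fold was -1.30, that of Ald1 -0.94, and the median of the citric acid cycle -0.71. Men (-2.32), the malic enzyme gene, and PCB (-2.05), for pyruvate carboxylase, fell as well. Of 61 nuclear oxidative phosphorylation genes 21 (34.4%) fell, including the ATP synthase genes blw (-2.30) and ATPsynO (-1.69), 4 rose and 36 did not pass. Under quantile scaling 15 fell and 8 rose, and against CS heads 42 fell and 2 rose. With IP replicates 2 and 4 left out, 32 fell and 5 rose. The median CS head signal of the oxidative phosphorylation genes was 3926. In the brightest quintile of all tested genes by CS head signal (from 677) a larger share, 44.8%, fell against Rh1 heads with all 4 IP arrays. The share of that quintile was not taken with replicates 2 and 4 left out. Glycolysis and citric acid cycle genes had median CS head signals of 2986 and 2907, with 78.9% and 63.2% lower.

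Lipid genes fell with them. All 7 of the 12 fatty acid synthesis genes that passed were lower, including FASN1 (-2.40), AcCoAS (-2.24) and ACC (-1.91), and of 18 lipid droplet, lipase and lipoprotein genes 14 fell and 1, the lipase gene bmm (0.68), rose. FASN1, fatty acid synthase, had 725, 964, 859.5 and 1268 in IP against 4410.4 to 5859 in Rh1 heads. In fatty acid oxidation 9 of 18 fell, led by bgm (-1.81), Had1 (-1.52) and whd (-1.24), and 1 rose. The droplet coats Lsd-1 (-2.46) and Lsd-2 (-2.53) and the lipoprotein apolpp (-3.66) fell. ifc, a sphingolipid desaturase, went the other way, with 1037, 818, 1134 and 705 against 201 to 262 (1.86, SE 0.15), while 5 of the 19 genes of its family fell, CDase (-1.71), a ceramidase gene, and eas (-0.99), an ethanolamine kinase gene, among them. In amino acid and one-carbon metabolism 17 of 28 fell, including the glutamine synthetase gene Gs1 (-2.31), and 3 rose. Cbs, which makes cystathionine, had 3441, 2827, 2695 and 492 against 400.0 to 445 (2.08, SE 0.52), with replicate 4 the lowest.

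Enzymes that clear foreign compounds did not move as a block. Of 61 cytochrome P450 genes 31 fell and 4 rose, and of 18 UDP-glycosyltransferases 10 fell, led by Ugt35C1 (-1.75), Ugt49B1 (-1.64) and Ugt35B1 (-1.25), and 1 rose. Ugt35B1 was higher against CS heads, with a log2 fold of 2.42. Cyp313a1 had 519.9, 488, 642 and 585 in IP against 4809 to 5229.7 in Rh1 heads (-3.10, SE 0.12), and Cyp6d5 (-2.71) and Cyp4ac1 (-2.69) followed, while Cyp6a9 rose with 1.30. Glutathione S-transferases went the other way, with 10 of 26 higher and 2 lower (median 0.26), and GstE3 had 3227, 2857, 3270.5 and 1491 against 525 to 779.5 (2.00, SE 0.25). GstE7 (1.44) rose and GstE9 fell by 2.39. In thiol redox defence Trx2 (1.67) and Trxr1 (1.51) rose, whereas Sod3 (-2.34) and Cat (-2.01), catalase, fell. Members of the juvenile hormone-binding protein family split as far, with Jhbp2 at 2.94, Jhbp3 at -2.54 and Jhbp14 at -3.60. Jhbp14 had 309, 234, 335 and 111 in IP against 2346 to 3702.

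Transporter families fell more often than they rose. Of 34 genes of zinc, copper and iron handling 14 fell, including transferrin, Tsf1 (-2.26), and the iron regulatory gene Irp-1B (-1.44), and 8 rose, ZnT35C first. Of 29 sugar, monocarboxylate and amino acid transporters 13 fell, the trehalose carrier Tret1-1 (-2.82) among them on a probe set of possibly shared sequence, and 4 rose. Of 10 ABC transporters 5 fell, including Atet (-1.35) and Mdr65 (-1.23), a pump of the blood-brain barrier, and 3 rose. The aquaporin gene Drip (-1.15) and the innexins Inx2 (-1.08) and ogre (-0.86), which form gap junctions, were the lowest of 8 genes for water and other solute channels, of which 4 fell and 1 rose.

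Genes of antenna, cuticle, blood and immunity included steep falls. Obp99c, an odorant-binding protein, had 914, 1169, 1179 and 715 in IP against 9556 to 10147 in Rh1 heads (-3.30, SE 0.17), and Obp56e (-3.07) and Obp56d (-2.94) fell too, while Obp8a rose with 1.42. Of the 72 tested genes of the odorant-binding and chemosensory receptor families 14 fell and 10 rose, below the share of all genes for each. Without IP replicates 2 and 4, 24 fell and 7 rose, and against CS heads 34 fell and 13 rose. In both of these the falls were above the share of all genes, so that reading depends on the arrays and the reference. Of 91 cuticle genes 28 fell and 13 rose, with Cpr100A (-2.62), Vajk3 (-2.02), the pigmentation gene e (-1.78) and the chitin deacetylases verm (-1.78) and serp (-1.60) lower. Digestive and other serine proteases had 3 of 23 higher, betaTry (0.48) among them, and 2 lower, Amy-d (-0.77), an amylase gene that the list includes, and Ser7 (-0.46). SPARC, a basement membrane protein, fell by 2.93, and 13 of 23 hemocyte and basement membrane genes fell, with the collagen gene Col4a1 (-2.30) and Ppn (-2.61), the latter on a probe set of possibly shared sequence. Of 22 antimicrobial and Turandot genes 11 fell, led by BomT2 (-2.05), LysB (-1.88), with the same doubt on its probe set, and IM33 (-1.67), and 3 rose. In Toll, IMD and JAK-STAT signalling 12 of 44 rose, among them the Toll ligand gene spz (1.75) and the serpin Spn47C (1.66), and 16 fell, among them Spn43Ab (-1.95). The fat body storage protein Lsp2 fell by 2.55. The contractile apparatus of muscle had 19 of 23 genes lower and 1 higher (median -1.52), with Prm (-3.17) and Mp20 (-2.76) next to up.

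Many of the 20 largest falls were of genes known only by a number. CG5172, at 134, 140.3, 125 and 141 in IP, had 2759.7 to 3689 in Rh1 heads (-4.34, SE 0.11, adjusted p = 4.93e-08), but a mean of only 471 (SD 134, n = 6) in CS heads, so its fold against CS heads was smaller, at -1.55. Cyt-b5-r, a cytochrome b5-related gene, had 594, 746, 735 and 456 against 9111 to 10436 (-3.90, SE 0.16) and 10026 (SD 874, n = 6) in CS heads. The rest, besides genes given above, were CG8329 (-3.77), CG2269 (-3.66), the troponin gene up (-3.62), CG7781 (-3.58), CG3088 (-3.56), CG8736 (-3.55), CG2233 (-3.52), CG9512 (-3.44), CG34227 (-3.25), CG10680 (-3.25) and fit (-3.22). In each of the 20 no IP array overlapped with an Rh1 head array.

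Subunits of a complex did not always move alike. Of the initiation factor eIF3, 5 of 13 tested subunits rose, with eIF3h (1.24), eIF3k (1.18) and eIF3l (1.17) the highest, and eIF3a fell by 1.21. In the splicing factor 3 complex Sf3b5 (1.39) rose and Sf3b3 (-1.39) fell. Of the Sec61 translocon, Sec61beta (0.94) and Sec61gamma (0.88) rose, while Sec61alpha, the pore subunit, had 1179, 380.3, 773 and 377 in IP against 2255 to 2874 in Rh1 heads (-2.01, SE 0.33). In the vacuolar proton pump VhaM9.7-c (1.63) rose and VhaSFD (-2.22) and Vha16-1 (-2.02) fell, and in the proteasome 6 of 14 tested regulatory particle genes fell, led by Rpn6 (-1.42) and Rpn11 (-1.23), and 1 rose, Rpt2 at -0.89 did not pass, while 4 of 12 core particle genes rose and 0 fell at the limma threshold. Over all 32 tested proteasome genes 6 rose and 6 fell, whereas against CS heads 16 rose and 5 fell. The array measures these transcripts and not the proteins. Probe sets of a gene also differed. Of 699 genes with several tested probe sets, 63 had probe sets called in both directions. Among genes named here, another probe set had the opposite sign for CCT2 at -0.32, EMC1 at 0.16, Npc2h at 0.09, gammaSnap1 at 0.36, Men at 0.37, larp at 0.05, mam at 0.12, ClC-a at 0.15, Rbp at 0.02, tmod at 0.01, ps at 0.20, bw, dlg1, Slob and stv. For eca at 0.04, scrib at -0.02 and dpr3 at -0.04 and -0.20 another probe set was near 0. It was much smaller for TyrRS at 0.21, stops at 1.00 and 0.30 and up at -0.34, among others. These others included Egfr at -0.31, beat-Vb at -0.29, Ank2 at -0.49, ACC at -0.66 and rut at -0.80.

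Calls were related to how bright a gene was in heads and how long it was. In the quintile of genes with the lowest CS head signal 26.9% were higher and 12.3% lower, and in the brightest quintile 16.7% and 44.8%. The filter used the mean over all arrays, IP included, so a gene dim in CS heads could pass it through a high IP signal. Dim genes also have little room to fall above the added 32. How far this raised the share of rises among dim genes was not tested. In the quintile of genes with the shortest span in the genome (up to 1.24 kb) 30.6% were higher and 15.0% lower, and in the longest quintile (from 8.55 kb) 11.6% and 40.4%. Among the brightest genes 57.8% of the longest and 38.4% of the shortest fell. Across genes, Spearman's rho was -0.28 between log2 fold and CS head signal (7816 genes) and -0.23 between log2 fold and span (7790 genes), while signal and span had 0.05. These points share the same 8 arrays, and genes are not independent replicates. With IP replicates 2 and 4 left out the values were -0.19 and -0.23. Median spans of 15.4 kb for sodium and calcium channels and 21.4 kb for nicotinic receptors compare with 1.49 kb for RNA polymerase II and general factors and 2.29 kb for COPI, COPII and translocon genes. The part of length, signal and 5′ loss in the family counts was not tested.

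**Figure D5:**
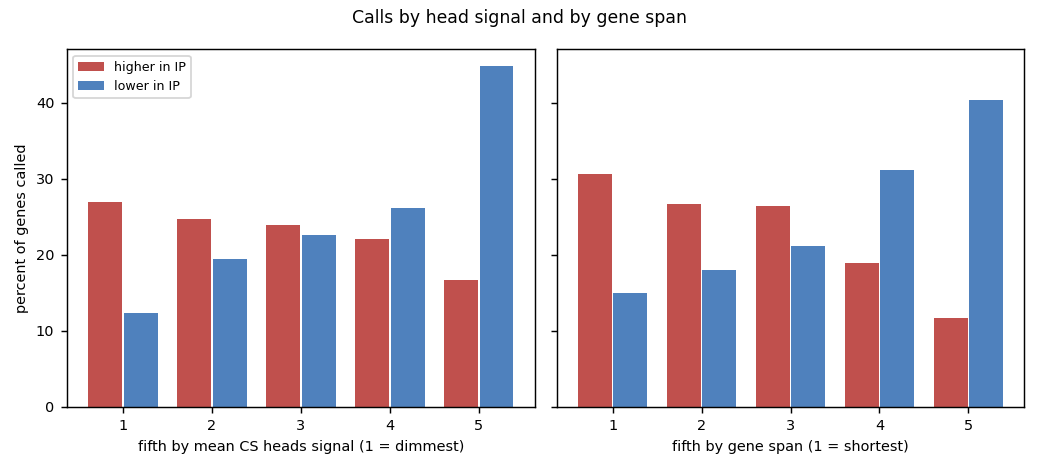
Percent of genes higher (red) or lower (blue) in IP than in Rh1 heads at an adjusted p under 0.05, in quintiles of all tested genes by mean CS head signal (left) and by gene span (right). From the dimmest to the brightest quintile the lower share goes from 12.3% to 44.8%, and from the shortest to the longest from 15.0% to 40.4%.

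By chromosome, the small chromosome 4 had the highest share of falls. Of its 40 tested genes 16 fell by at least 2-fold and 1 (2.50%) rose by as much, whereas on the other arms 7.49% to 10.1% fell and 5.88% to 8.65% rose. The median log2 fold was -0.44 on chromosome 4, -0.39 with IP replicates 2 and 4 left out and -0.30 against CS heads. The 16 included apolpp (-3.66), Gat (-3.30), Syt7 (-2.64), Asator (-2.62), PMCA (-2.53), Eph (-1.75), unc-13 (-1.67), Pur-alpha (-1.47), mGluR (-1.15) and onecut (-1.08). The median span on chromosome 4 was 10.9 kb, and the median CS head signal of its genes 363 against 313 for all tested genes. No test was made of the difference between chromosomes.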

How the data were processed

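Affymetrix arrays measured RNA of IP (4), Rh1 heads (4) and CS heads (6), 1 array a sample, grouped by their labels. The values used were the authors' deposited intensity per probe set on a linear scale, already at a common level (array medians 180.1 to 201.8). No label or header names the probe set algorithm or the target of the scaling. The number of arrays limits the precision, and since nothing says that samples came from separate fly cultures, p-values may cover technical spread only.

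Each array was rescaled here to a common mean after trimming 2% at each end, 32 was added and log2 taken, which understates changes of dim probe sets. Of 13966 non-control probe sets, 9776 with a mean log2 signal at or above the 30th percentile were fitted with limma 3.58.1 in R 4.3.3 (lmFit, then eBayes with an intensity trend). Its p-values were two-sided and adjusted over all tested probe sets by the Benjamini-Hochberg method. A gene was its brightest probe set among the 12442 that the platform annotation pairs with 1 gene. Another 327 pair with several and 1197 with none, and these are not named. For 133 tested genes the probe sets may share sequence with other genes. Some genes of the visual system, among them the Rh1 opsin gene, are not analysed here.

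On simulated data for IP against Rh1 heads (9776 probe sets, 200 changed, 10 draws), the fit found 81.4% of the probe sets changed 2-fold and 54.0% of those changed 1.5-fold, and 14.3% of its calls were false. Noise was drawn independently for each probe set, and far fewer probe sets were changed than were called in the data. These shares therefore do not carry over to the calls reported here. In the simulation as in the data, the fit gave both groups a shared variance for each probe set. The median SD of log2 signals over genes was 0.221 in IP and 0.097 in Rh1 heads. What this unequal spread did to the calls was not tested.

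The members, the 78 gene families and the complexes were chosen with earlier results of these data known, and 24 misassigned family entries were removed by identity after values were seen. Genes were named by rule: the 20 largest rises and 20 largest falls with separate arrays, the 3 members of each family with the largest changes, and the checks Pph13, Hdc, trp, trpl, repo and pAbp. Any other gene named was picked with its values in view. The alternatives changed the pseudocount, filter, scaling, array weights, reference group, probe set rule or fold asked for, or left out arrays. Promoter motifs were not examined.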

Additional observations from a re-analysis of the deposited data

Results flagged for a closer look

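The array farthest from the others of its group was compared with the group's range by Dixon's criterion, for the 54 genes given by array in IP and in Rh1 heads and for 3 measures of array quality in all groups. Of 117 sets of values tested 3 were past it, where chance gives about 1 in 20. For Sh, IP replicate 1 had 132 and stood apart from the other IP arrays (45.8, 50.8 and 44.2), still below all Rh1 head arrays. For se, IP replicate 4 had 2356 and stood below the other IP arrays (7089, 6962 and 6837). For bw, Rh1 head replicate 3 had 638, below the others at 687 to 693.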

How the results depend on the processing

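With limma against a fold of 1.2, 2247 genes were called, 1017 higher and 1230 lower, and with array weights 2940 were lower. All other alternatives left the counts of called, higher and lower genes within 1.5 times of those reported. Over the fits that each left out 1 array, 3075 to 4315 genes were called, 1388 to 2038 higher and 1681 to 2292 lower, with 544 to 636 at least 2-fold higher and 682 to 771 at least 2-fold lower. In these fits 28 to 32 families had a median above that of all genes, and 25 to 28 had more members higher than lower. No gene called in the main comparison was called in the opposite direction except 27 with CS heads as the reference and 4 with the mean of a gene's probe sets. Of 360 named genes, 7 changed sign with CS heads as the reference: Arr2 (-0.36), Ugt35B1 (2.42), Vps28 (-0.03), inaC (-0.77), inaD (-0.19), trp (-0.11) and trpl (-0.51). Another 12 lost their call there: Gbeta76C, Sec61gamma, bmm, tmod, Teh2, Trs33, Vps20, BBS1, GluRIIA, betaTry, iav and rk. Against a fold of 1.2, 30 lost their call, among them Arr2, inaC, crb, par-6, yrt, g, lt, PAN3, Sec8, alphaCOP, Orai and Fas1. Bet3, not called, moved to 0.01 with median scaling, 0.00 with quantile scaling and between -0.07 and 0.01 over the fits that left out 1 array, above 0 without IP replicate 1 and without Rh1 head replicate 2. The log2 fold of repo, also not called, ran from -0.14 to 0.16 over the fits that left out 1 array, with the lowest value without Rh1 head replicate 1. The cause was not tested. Leaving out single arrays ended the call in at least 1 fit for Teh2, Trs33, inaC, Vps20, alphaCOP, lt, Ank2, eIF3k, Sec8, Fas1, Vps26, Ald1, Orai, BBS1, GluRIIA, GluRIIB, RpLP0, Ubi-p63E, Xpc, betaTry, iav, ogre, rdhB and rk. Of the named genes that did not pass, ClC-a, Rpt2, RpL3, eEF1alpha2, eIF3b and pAbp were called under some alternatives, and Bet3 was lower against CS heads. Dim probe sets, at or below the filter, limit what can be seen of low genes. No paired analysis was possible because the labels of the IP samples carry no replicate number that ties them to a head sample.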
